A study of Mus musculus with 5 samples.

Results

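ET1 is a group of 178 cells from mouse aorta that the submitters' cell metadata class as Erythroid and give the subtype name ET1. All cells carrying that name were taken, of 5600 cells in the aorta table and 14878 cells in the series. The 2 aorta libraries, 1 labelled DKO and 1 labelled WT, are both labelled ApoE as well, so whatever that background carries is shared by both groups. DKO is not spelt out in the labels: their protocol calls the mice Liver-DKO, and the series title is about liver epsins. Since the deletion is placed in liver, aortic RNA is no check of it. Neither age nor treatment is given, the 3 mice mentioned are not tied to libraries, and the isolation described is that of liver. The library labelled DKO held 107 ET1 cells and the library labelled WT 71. ET2, the submitters' other erythroid subtype, held 101 and 67 cells. Each group is 1 library, so there is no test and no difference has a replicate check, and every interval is at 95% and covers counting error only. Unique molecular identifiers (UMIs), 1 per captured RNA molecule, are the unit of counting throughout.

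Red blood cells are made from nucleated precursors that fill with haemoglobin, expel the nucleus and leave the marrow as reticulocytes, which still hold RNA and lose it as they mature in blood. Haemoglobin is assembled from alpha and beta globin chains and haem, and globin messages come to dominate the RNA of the late stages as other messages are degraded. Alas2 is the erythroid enzyme of the first step of haem synthesis. Bnip3l directs the clearance of mitochondria, and Ube2l6 is a ubiquitin and ISG15 conjugating enzyme that is abundant in late erythroid cells. In aorta, such cells usually come from blood that remains in the vessel.

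The 4 adult globin genes and Alas2 are the genes that mark ET1 most strongly, and the sequence before 3 of them is shown because these members were high together. The sequences are the 250 bases ahead of the RefSeq start on GRCm38.p6, the assembly that mm10 is made from, written on the gene's own strand. Capitals mark a word bound by GATA factors such as the erythroid regulator GATA1, the globin CACC box CCACACCC, or the word TATAAA, each searched on both strands. The words searched for GATA were AGATAA or AGATAG, and also TGATAA or TGATAG. The Hbb-bs sequence is chr7:103827929-103828178 on the minus strand, that of Hba-a2 is chr11:32296242-32296491 on the plus strand, and that of Alas2, the haem gene, is chrX:150547167-150547416 on the plus strand.
Hbb-bs: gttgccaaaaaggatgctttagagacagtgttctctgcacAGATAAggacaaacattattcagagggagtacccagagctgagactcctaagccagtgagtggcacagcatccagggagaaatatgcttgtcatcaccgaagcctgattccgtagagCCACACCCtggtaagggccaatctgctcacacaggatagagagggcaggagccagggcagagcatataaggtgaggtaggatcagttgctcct
Hba-a2: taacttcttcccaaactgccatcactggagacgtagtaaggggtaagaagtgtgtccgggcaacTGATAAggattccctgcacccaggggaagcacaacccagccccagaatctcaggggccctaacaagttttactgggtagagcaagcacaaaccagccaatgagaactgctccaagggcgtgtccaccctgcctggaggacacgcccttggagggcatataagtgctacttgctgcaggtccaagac
Alas2: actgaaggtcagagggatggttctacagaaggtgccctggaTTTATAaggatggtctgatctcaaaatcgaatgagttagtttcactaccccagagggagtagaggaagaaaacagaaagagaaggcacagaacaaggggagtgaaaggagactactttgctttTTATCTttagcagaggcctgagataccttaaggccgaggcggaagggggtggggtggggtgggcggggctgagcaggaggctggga
Each of the 3 holds 1 GATA word, and Hbb-bs also holds 1 CACC box. Of 32536 RefSeq windows of this length, 26.5% hold a GATA word, 3.20% the CACC box and 12.3% TATAAA. Hba-a1 holds 1 GATA word, whereas the windows of Hbb-bt, Ube2l6, Bpgm, Tent5c, Mkrn1 and Gpx1 hold none. These matches describe letters in a window, and none of the motifs overlapped another. GENCODE M21, the source of the gene positions given below, starts Hbb-bs, Hba-a2 and Alas2 inside these windows. Bnip3l was not matched in the promoter table.

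ET1 cells carried globin at levels found in no other subtype except ET2, and Alas2 with them, while several genes of the red cell membrane were at or near 0. Hbb-bs, the major adult beta globin gene (on mm10 at chromosome 7, 103826534 to 103828096), stood at 274366 CPM (271836 to 276914) in the library labelled DKO, where CPM is UMIs per 1000000 UMIs of the group. It stood at 172346 CPM (170099 to 174616) in that labelled WT. In ET2 it was higher, at 430068 and 501108 CPM, and in the cells outside both subtypes it was 1811 and 1362 CPM. Hba-a2, an alpha globin gene (chromosome 11, 32296489 to 32297298), was 166 and 141 times their level after adding 20 CPM to both sides. Alas2 (chromosome X, 150547375 to 150570638) was 57.1 and 31.6 times their level. Ube2l6 (chromosome 2, 84798828 to 84810335) was 23.7 and 13.3 times, and Bnip3l (chromosome 14, 66985239 to 67008877) only 3.31 and 4.12 times. All 5 genes given as markers of ET1 lay above the outside cells in both libraries.

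**Figure D1:**
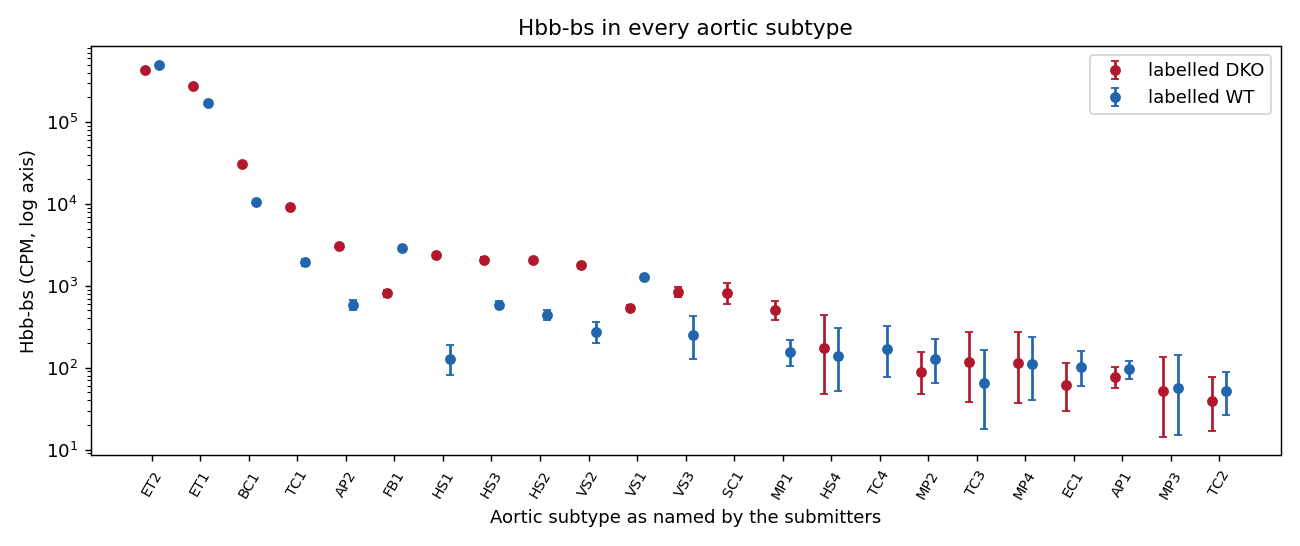
Hbb-bs in every aortic subtype, as CPM of the UMIs summed over its cells, on a log axis. Points are libraries (red labelled DKO, blue labelled WT), bars are exact 95% Poisson intervals, and a subtype without an Hbb-bs UMI in a library has no point there. ET2 and ET1 stand above every other subtype in both libraries.

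The subtypes were named on expression in these cells, so the ranking is a description and carries no test. With ET2 counted among the other cells, the 15 leading genes included Hba-a2, Hba-a1, Hbb-bs, Hbb-bt, Alas2, Ube2l6, Bpgm, Tent5c and Bnip3l, whose smaller fold of the libraries fell from 5.79 to 2.06. Bpgm makes 2,3-bisphosphoglycerate, the metabolite that lowers the oxygen affinity of haemoglobin, and Tent5c is a poly(A) polymerase. AY036118, Camk1d, Gm42418, Cmss1 and Ccn3 followed at 1.46 to 1.26. Gm42418 (chromosome 17, 39846958 to 39848788) and AY036118 (39847113 to 39848035) overlap on opposite strands at a ribosomal RNA locus, so their reads cannot be assigned to one or the other with certainty.

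Globin RNA reached cells outside the erythroid subtypes at a low level, which sets the background for single-cell shares. Every ET1 cell labelled WT and 106 of 107 labelled DKO had an Hbb-bs UMI, at median depths of 1287 and 1446 UMIs. In smooth muscle subtype VS1, which should lack the gene, 27.2% of cells labelled DKO and 22.2% labelled WT had one, at 2365 and 2119 UMIs. After every cell was thinned to 500 UMIs those shares were 9.52% and 9.76%, against 99.1% and 100% in ET1, with no ET1 or VS1 cell left out. Globin made up 0.334% and 0.223% of all UMIs outside ET1 and ET2. Over subtypes of at least 20 cells, Hbb-bs ran there from 39.2 CPM in TC2 to 9106 in TC1 in the library labelled DKO, and from 51.4 in TC2 to 10421 in BC1 in that labelled WT. Some of those cells held much globin: 23 of 2592 outside cells labelled DKO and 15 of 2662 labelled WT held more than 5% globin, up to 54.4% and 43.8%.

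Several defining regulator, progenitor and membrane genes of the red cell lineage had no UMI or 1 UMI in ET1, while other members of the same lists were counted. Slc4a1, the band 3 anion exchanger, had 1 and 0 UMIs (DKO then WT), and Epb42, protein 4.2, 1 and 0. The erythroid regulators Gata1, Klf1, Tal1, Nfe2, Gfi1b and the erythropoietin receptor gene Epor had none, nor did the progenitor genes Kit and Myb. A floor of 3 counts over the group is 18.3 and 23.0 CPM, and is not the bound of an interval. In all, 8 of 16 regulators, 4 of 10 progenitor genes and 7 of 23 membrane genes in the table had no UMI in either library, and none reached 100 UMIs. No share over all genes is given beside these counts, so nothing is read from them about the lists. The regulators summed to 30 and 37 UMIs, led by Foxo3 (9 and 13), or 0.0378% and 0.0409% of non-globin UMIs, against 0.0770% and 0.0719% outside ET1 and ET2. The progenitor genes gave 0.0441% and 0.0664%, near the 0.0504% and 0.0723% outside, with Rexo2 and the metallothionein Mt2 holding most of their UMIs. The membrane genes gave 0.115% and 0.0697%, led by Epb41, protein 4.1 (40 and 23 UMIs), against 0.685% and 1.49% in ET2. Of the embryonic globins the table holds Hba-x, which had none. ET2 held 15 and 27 UMIs of Slc4a1 and 6 and 1 of Epb42, from 353309 and 369513 UMIs against 163927 and 130203 in ET1.

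The globin share of a cell's UMIs spread over nearly the whole scale in ET1, whereas it was high and narrow in ET2. In the library labelled DKO the lowest, median and highest ET1 cell held 0%, 45.7% and 84.4% globin. In that labelled WT they held 5.09%, 15.6% and 92.7%. ET2 cells had medians of 81.1% and 89.8%, with the middle 50% of cells between 78.7% and 82.7% and between 87.7% and 90.9%. The same quartiles in ET1 were 14.1% and 71.1%, and 8.60% and 31.1%, so ET1 was far wider and reached lower. The plot of globin share against non-globin UMIs shows cells between the extremes as well as at both ends.

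**Figure D2:**
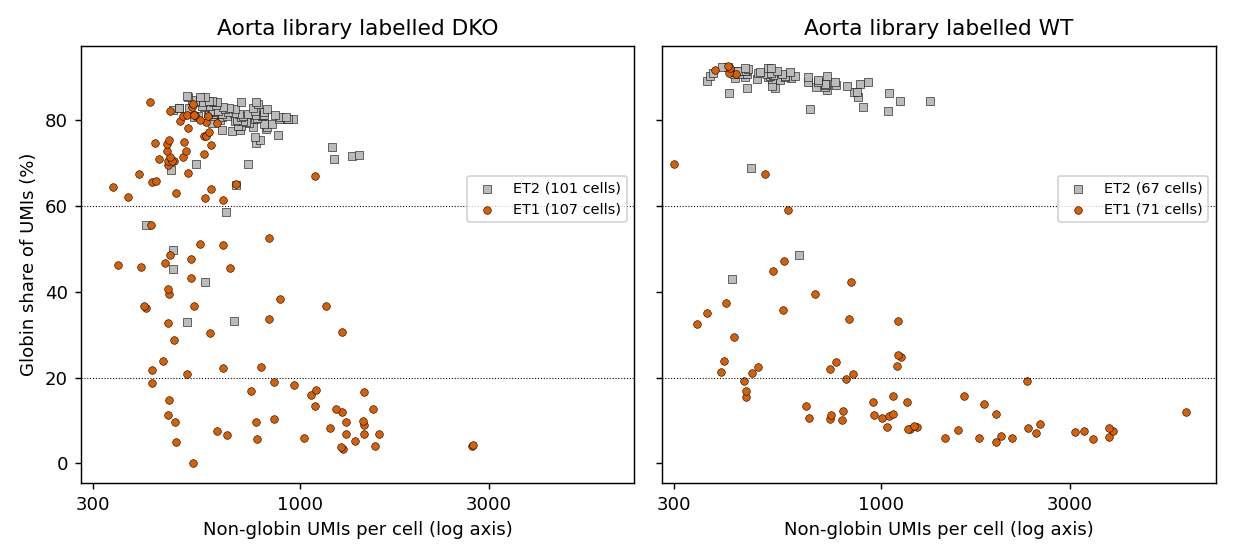
Each point is 1 cell: the share of its UMIs that are globin (percent) against its number of non-globin UMIs (log axis), with ET1 in orange circles and ET2 in grey squares. Dotted lines mark 20% and 60% globin; ET2 cells sit mostly above 60%, while ET1 cells run from the bottom of the scale to the top, with 44 cells labelled DKO and 7 labelled WT at or above 60%.

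Splitting ET1 by globin share, at limits of 20% and 60% chosen after seeing the data, gave 3 ranges and not 3 cell types. 12 and 16 cells (DKO then WT) lay within 5 points of the lower limit, and 7 and 1 within 5 points of the upper one. Cells under 20% globin numbered 35 and 42, those from 20% to 60% 28 and 22, and those of at least 60% 44 and 7. Cells under 20% globin were gene-rich, with medians of 689 and 771 genes and 1103 and 1224 non-globin UMIs. Cells of at least 60% globin had medians of 293 and 210 genes and 514 and 415 non-globin UMIs, against the 676 and 542 of ET2. Their globin UMIs, with medians of 1414 and 4288, were below the 2919 and 5112 of ET2. Mitochondrially encoded RNA made up similar parts of the non-globin UMIs in every range, with cell medians from 3.08% to 4.43%, and was 3.24% and 1.98% in ET2.

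Outside globin, ET1 carried RNA of the aortic wall. Smooth muscle markers (7 of 7 detected in each library, led by Acta2 and Tagln, the contractile actin and transgelin) made up 2.72% and 1.85% of non-globin UMIs in ET1. That was above the 1.70% and 1.32% over all cells outside ET1 and ET2. Fibroblast markers made up 0.632% and 1.21%, against 1.01% and 1.49% outside, with Pdgfra at 0 and 2 UMIs. ET2 carried both sets too, at 1.85% and 1.03% for smooth muscle and 0.518% and 0.308% for fibroblast. Within ET1 the smooth muscle share was 3.17% and 2.06% in cells under 20% globin and 2.09% and 1.05% in cells of at least 60%. The part of free RNA or of doublets with wall cells in these values was not tested.

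Markers of blood cells other than red cells were at or near 0 in ET1. T cell, and platelet and megakaryocyte markers had no UMI in either library, and neutrophil markers had 0 and 1. Macrophage markers summed to 5 and 1 UMIs, or 0.00629% and 0.00111% of non-globin UMIs against 0.0729% and 0.0851% outside, with Cd68, Csf1r, Adgre1 and Cd74 at 0. B cell markers were 0.0378% and 0.0365%, of which all UMIs but 1 were of Ebf1, a gene that aortic wall cells also express; Cd79a, Cd79b and Ms4a1 were at 0. Endothelial markers were 0.0176% and 0.00885%, against 0.0522% and 0.0440% outside, with Cdh5, Vwf, Kdr, Egfl7 and Cldn5 at 0. Cartilage markers were 0.0227% and 0.0841% with Comp, a cartilage matrix protein gene, in the lead (outside, 0.0402% and 0.304%), and Schwann cell markers 0.00504% and 0.0144%.

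The non-globin profile of ET1 resembled different subtypes in the libraries. Over 202 genes, the Pearson correlation of log2 non-globin CPM (after adding 20) with ET2 was 0.844 in the library labelled DKO, where the next were the smooth muscle subtypes VS2 (0.757) and VS3 (0.737). In the library labelled WT the highest was with FB1 (0.785), then HS2 (0.782), and ET2 stood at 0.616. These profiles share a library, and so its depth and free RNA, and genes are not replicates.

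Setting ET1 beside ET2, the difference seen depended on whether globin was part of the total. Of 342 genes with at least 100 UMIs over both subtypes, 251 (73.4%) were at least 2 times higher in CPM in ET1 in both libraries and 40 (11.7%) at least 2 times lower. As CPM of non-globin UMIs, 12 (3.51%) were higher and 69 (20.2%) lower. The median over all genes was 1.47 and 3.46 on the log2 scale in CPM (DKO then WT), and 0.19 and 0.81 per non-globin UMI, so a gene at 2 times in CPM lay below most others in both libraries. The 10 genes furthest above ET2 by CPM included Ints6, Sod3, Ext1, Samd4, Fstl1, Atp2a2, Dmd, App and Ptms, which are not genes of the erythroid lists. Sod3, the extracellular superoxide dismutase of the vessel wall, was 7.42 (4.33 to 13.3) times its ET2 level in the library labelled DKO and 53.9 (17.5 to 269) in that labelled WT, where ET2 held 3 UMIs. Dmd, the dystrophin gene of muscle, was 6.01 (4.48 to 8.17) and 11.0 (7.55 to 16.3) times. Per non-globin UMI these genes were still 2.35 to 3.09 times higher in the library labelled DKO and 1.08 to 8.60 in that labelled WT. With the median ratio of all genes set to 1, Dmd stood at 0.996, Ext1 at 0.629 and Samd4 at 0.616 in the library labelled WT.

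The 10 genes furthest below ET2 by CPM were Prxl2a, Cmas, Car2, Cd24a, Slc25a37, Ube2c, Rsad2, Gda, Isg20 and Bpgm. Most of them passed the limit of 100 UMIs through ET2. Cmas, for example, had 2 and 1 UMIs in ET1 against 63 and 53 in ET2. Their low ratios are thus in part set by that filter, and the ranking supports nothing. Bpgm stood at 354 CPM (269 to 457) and 568 CPM (446 to 714) in ET1 and at 2151 and 2489.8 CPM in ET2. Its ratio to ET2 was 0.164 (0.124 to 0.215) in the library labelled DKO and 0.228 (0.178 to 0.289) in that labelled WT. Slc25a37 is mitoferrin-1, which carries iron into mitochondria for haem, and its ratios were 0.124 (0.0525 to 0.251) and 0.150 (0.0812 to 0.257). Rsad2, the antiviral protein viperin, had ratios of 0.138 (0.0806 to 0.222) and 0.169 (0.100 to 0.268), and Isg20, an exonuclease, 0.187 (0.110 to 0.299) and 0.222 (0.129 to 0.359). Both are also interferon-inducible. The list of interferon-stimulated genes used here has 21 members in the table and does not hold Isg20. Of those members Rsad2 alone reached 100 UMIs over ET1 and ET2. Isg20 had 19 and 18 UMIs in ET1 and 219 and 230 in ET2. Car2, carbonic anhydrase 2 of red cells, was counted 4 and 2 times in ET1, with ratios of 0.112 (0.0298 to 0.298) and 0.0473 (0.00566 to 0.175). Cd24a, a surface glycoprotein of immature red cells, had a ratio of 0.118 (0.0500 to 0.239) in the library labelled DKO and no UMI in that labelled WT. A floor of 3 counts there would lie 11.9-fold below ET2, and that floor is not the bound of an interval.

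Gene lists were set beside ET2 per non-globin UMI as a description, since many erythroid genes reached 100 UMIs through ET2, and a low value in ET1 is then in part set by that filter. Of 9 reticulocyte maturation genes with enough UMIs (29 in the table), 8 were at least 2 times lower in both libraries, with medians of -3.24 and -4.64 on the log2 scale. Of 11 genes of the ubiquitin system (24 in the table), 10 were lower, and of 6 iron genes (14), 5. Of 5 antioxidant genes (18) 4 were lower, of 6 mitophagy and autophagy genes (17) 3, and of 3 haem synthesis genes (15) 3. All 4 adult globins were lower, while of 68 ribosomal protein genes, 11 mitochondrially encoded and 6 smooth muscle genes none was. Of 8 translation factor genes (17) 3 were lower, of 3 glycolysis and carbonic anhydrase genes (19) 2, and of 2 haem breakdown genes (10) 2. The share over all genes was 20.2%, as above.

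The cells of ET1 with the most globin were set beside ET2 per globin UMI, which leaves the other RNA out of the total. This scale, UMIs per 10000 globin UMIs, and the limit of 60% globin were chosen after seeing the data. For a reference, 42 genes other than globins were taken with at least 50 UMIs in ET2 in each library and at least 10 times the non-globin CPM of the cells outside ET1 and ET2. Since high values in ET2 chose these genes, low ratios follow in part from the choice, and the counts support nothing. In the 44 such ET1 cells labelled DKO, 35 of the genes stood at no more than 0.5 of the ET2 level, and in the 7 labelled WT 27 did. In both libraries at once 25 did. Among all genes tested other than globins 46 of 338 (13.6%) did. The 338 hold the 42 chosen genes, and the 46 hold the 25, so nothing is read from the comparison. The median ratio was 0.272 and 0.429 (0.439 with genes of no UMI set at 3 counts); over all genes tested it was 1.43 and 0.921.

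**Figure D3:**
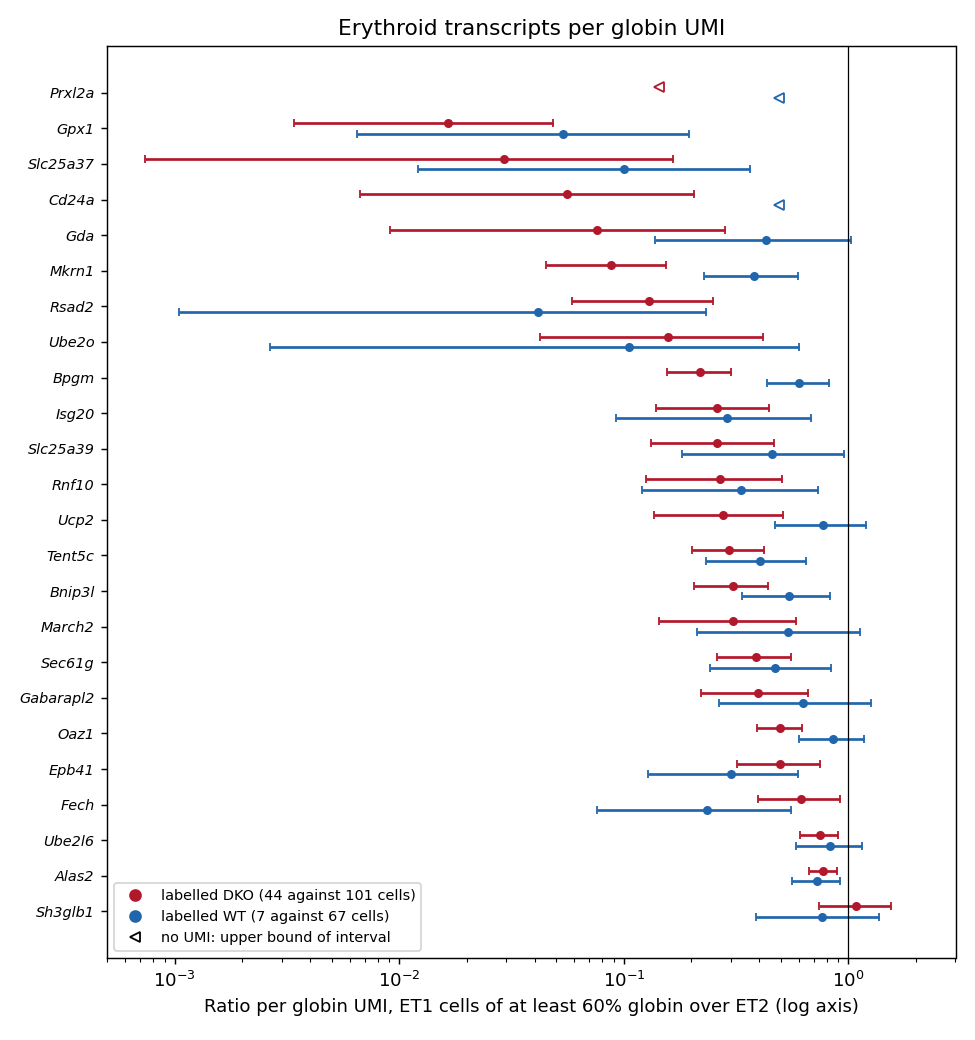
Ratio of UMIs per globin UMI in ET1 cells of at least 60% globin over ET2 (log axis) for the genes of that reference with at least 100 UMIs in ET2 in each library, apart from 1 not reported here. Points are libraries with exact 95% intervals, and open triangles give the upper bound where ET1 had no UMI; Gpx1 lies at 0.0165 and 0.0535, while Sh3glb1, Alas2 and Ube2l6 lie nearest to 1 in the library labelled DKO.

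The ratios were uneven across genes, and Alas2 was among those nearest to 1 in the library labelled DKO. Alas2 stood at 32.2 (28.1 to 36.7) per 10000 globin UMIs in high-globin ET1 labelled DKO and 28.2 (22.0 to 35.6) labelled WT, against 41.7 and 39.1 in ET2. Those are ratios of 0.772 (0.666 to 0.891) and 0.721 (0.559 to 0.918). Ube2l6 had ratios of 0.744 (0.610 to 0.903) and 0.830 (0.582 to 1.15), the second of which includes 1. Sh3glb1, which encodes endophilin-B1, a membrane-shaping protein of autophagy, stood at 1.08 (0.744 to 1.54) and 0.764 (0.388 to 1.36), both including 1. Fech, the enzyme that puts iron into haem, was lower, at 0.614 (0.397 to 0.917) and 0.236 (0.0759 to 0.556), and so was Slc25a37, at 0.0292 (0.000734 to 0.165) and 0.100 (0.0121 to 0.366). Genes of haem synthesis and its iron supply thus did not share 1 ratio.

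The lowest ratio among those given here was that of Gpx1 in the library labelled DKO. Gpx1, the glutathione peroxidase of red cells (chromosome 9, 108338903 to 108340343), had 3 and 2 UMIs in high-globin ET1 against 738 and 495 in ET2, ratios of 0.0165 (0.00339 to 0.0484) and 0.0535 (0.00646 to 0.194) per globin UMI. Mkrn1, a ubiquitin ligase (chromosome 6, 39397804 to 39420462), had ratios of 0.0879 (0.0451 to 0.155) and 0.379 (0.227 to 0.596). Rsad2 stood at 0.130 (0.0588 to 0.25) and 0.0415 (0.00105 to 0.233), the latter from 1 UMI. Gpx1, Mkrn1 and Rsad2 were thus below ET2 in both libraries. Bpgm had ratios of 0.219 (0.156 to 0.300) and 0.604 (0.433 to 0.824). Tent5c (chromosome 3, 100451628 to 100489324) had 0.294 (0.200 to 0.419) and 0.402 (0.232 to 0.649), and the mitophagy gene Bnip3l 0.305 (0.205 to 0.440) and 0.542 (0.337 to 0.830). Over the 42 genes, the interval lay below 1 for 39 labelled DKO and 22 labelled WT, and for 21 in both. High values in ET2 chose these genes and no such count over all genes is given, so nothing is read from it. The high-globin cells labelled WT number 7, so their values rest on few cells.

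Over all ET1 cells the same scale is mixed with wall RNA. Gpx1 was 3.55 and 12.1 per 10000 globin UMIs there, and the cells outside the erythroid subtypes held it at 321 and 365 CPM. Of the 42 genes, 9 stood at no more than 0.5 of ET2 in both libraries, with median ratios of 0.415 and 0.760. That count too follows in part from the choice of genes, has no share over all genes beside it, and supports nothing. Alas2, which few wall cells express, was 32.4 and 28.6 in ET1 and 28.8 and 37.3 in the cells outside, from 55 and 49 UMIs. Alas2 thus stood in a similar proportion to globin in ET1 and in the outside cells.

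The make-up of the globin differed within ET1. Hbb-bt, the minor adult beta globin gene (chromosome 7, 103812524 to 103813996), gave 6.41% (6.19% to 6.63%) of beta globin UMIs in ET1 labelled DKO and 6.89% (6.58% to 7.22%) labelled WT. In ET2 it gave 12.5% and 8.63%, and outside both subtypes 10.6% and 4.48%. Cells of at least 60% globin were at 6.10% and 5.94%, the latter from 7 cells, and cells from 20% to 60% at 5.68% and 8.15%. Cells under 20% globin, at 13.4% (12.0% to 14.8%) and 8.77% (7.98% to 9.61%), were not below ET2. Alpha globin gave 43.1% and 39.5% of globin UMIs in ET1 and 38.5% and 38.3% in ET2. The Hba-a1 (chromosome 11, 32283511 to 32284465) and Hba-a2 transcripts are 99.8% identical over 538 aligned positions and those of Hbb-bs and Hbb-bt 95% over 582, so how reads were split between copies is uncertain.

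Between the libraries, ET1 made up 3.82% (3.14% to 4.60%, exact Clopper-Pearson) in the library labelled DKO and 2.54% (1.99% to 3.19%) in that labelled WT, each with 2800 cells in all. The ratio was 1.51 (1.11 to 2.06), and for ET2 it was 1.51 (1.10 to 2.08). Within ET1 the libraries were furthest apart in the cells rich in globin. Cells of at least 60% globin were 41.1% (31.7% to 51.0%) of ET1 labelled DKO and 9.86% (4.06% to 19.3%) of ET1 labelled WT. Per cell of the library these ET1 cells were 6.29 (2.81 to 16.5) times as frequent, whereas the ratio was 0.833 (0.517 to 1.34) for cells under 20%. ET2 held a further 94 and 65 cells (DKO then WT) of at least 60% globin, which are not part of that ratio. The ratio thus also depends on how globin-rich cells were divided between ET1 and ET2. Label, animal and preparation cannot be told apart, since each label is 1 library, and why the cell numbers are equal is not stated in the labels.

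Few genes were higher and many lower in CPM in ET1 labelled DKO, where globin took more of the total. Of 206 genes with at least 100 UMIs over both libraries, 11 (5.34%) were at least 1.5 times higher in CPM in the library labelled DKO and 92 (44.7%) at least 1.5 times lower. The median over all genes was -0.53 on the log2 scale, and ratios below are to be read against that shift. Per non-globin UMI that median was -0.01, and 30 (14.6%) were higher and 36 (17.5%) lower. The change of total multiplies every ratio by the same factor. The 10 genes furthest up and the 10 furthest down are therefore the same on both scales by construction.

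**Figure D4:**
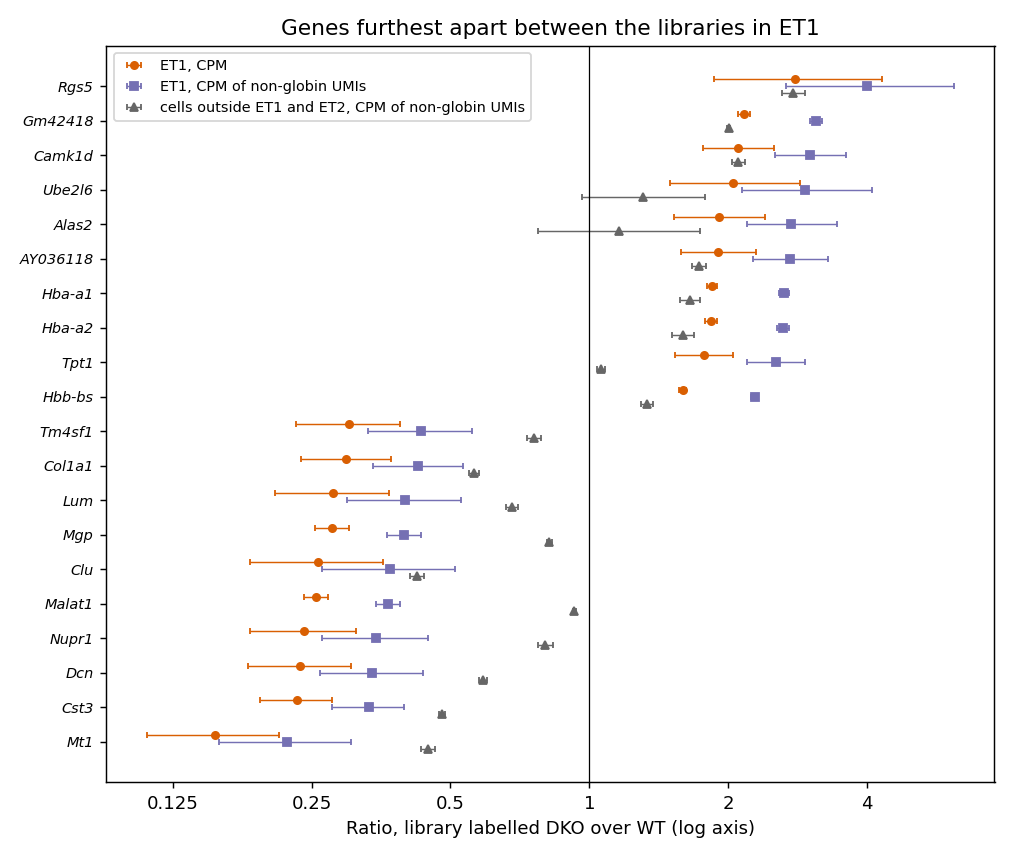
Ratio of the library labelled DKO over that labelled WT (log axis) for the 10 highest and 10 lowest genes of ET1, as CPM (orange circles), as CPM of non-globin UMIs (purple squares) and, for comparison, in the cells outside ET1 and ET2 (grey triangles). Bars are exact 95% intervals; per non-globin UMI Gm42418 lies at 3.10 in ET1 and 2.0 outside, and Malat1 at 0.366 and 0.928.

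Globins and their partners were higher in the ET1 cells labelled DKO. Hbb-bs had a CPM ratio of 1.59 (1.57 to 1.62), Hba-a1 1.85 (1.80 to 1.89) and Hba-a2 1.83 (1.78 to 1.89). Alas2, at 1671 against 876 CPM, had a ratio of 1.91 (1.53 to 2.40). Ube2l6, at 866 against 422 CPM, had 2.05 (1.49 to 2.85). Of 7 erythroid markers with enough UMIs (11 in the table), 5 were higher in CPM and 0 lower, and the median log2 ratio was 0.87. Over all 206 genes tested 5.34% were higher and 44.7% lower. Bnip3l, at 323 CPM (242 to 423) and 476 CPM (365 to 610.4), had a CPM ratio below 1, at 0.679 (0.462 to 0.996), and stood at 0.973 (0.661 to 1.43) per non-globin UMI, an interval that includes 1. Bpgm likewise was 0.623 (0.434 to 0.890) in CPM and 0.892 (0.621 to 1.27) per non-globin UMI. Among cells of at least 60% globin the CPM ratio of Alas2 was 0.955 (0.727 to 1.27) and that of Ube2l6 0.974 (0.672 to 1.44), both including 1. Per non-globin UMI both were lower there, at 0.397 (0.303 to 0.527) and 0.405 (0.280 to 0.599). Per globin UMI they stood at 1.14 (0.868 to 1.51) and 1.16 (0.803 to 1.72). The comparison in those cells thus depends on the total used. In cells of any globin share without markers of other cell types, Alas2 was at 1.36 (1.06 to 1.76), Ube2l6 at 1.42 (0.999 to 2.04) and Hbb-bs at 1.14 (1.12 to 1.16). Among cells of at least 60% globin Hbb-bs was 0.793 (0.778 to 0.809), below 1, and among cells under 20% globin 0.858 (0.814 to 0.905).

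The 5 transcripts among the top 10 that are not erythroid were higher in the rest of that library as well, Tpt1 only slightly. Gm42418 had a CPM ratio of 2.16 (2.09 to 2.23) in ET1, and per non-globin UMI 3.10 (3.00 to 3.20), against 2.0 (1.99 to 2.01) in the outside cells. Rgs5, a regulator of G protein signalling in pericytes and smooth muscle, was at 2.79 (1.86 to 4.31) in CPM and 4.0 (2.66 to 6.17) per non-globin UMI, against 2.76 per non-globin UMI outside. Camk1d, a calcium-dependent kinase gene (chromosome 2, 5293457 to 5714515), was at 2.10 in CPM and 3.00 (2.52 to 3.60) per non-globin UMI, against 2.10 outside, and AY036118 at 1.90 and 2.72 (2.27 to 3.29), against 1.73. On the scale of non-globin UMIs, the intervals of Gm42418, Camk1d and AY036118 over all ET1 cells lay above the ratio outside. That of Rgs5 included it. In ET1 cells of at least 60% globin, Gm42418, Camk1d and AY036118 stood at 1.22 (1.12 to 1.33), 0.971 (0.621 to 1.59) and 0.962 (0.602 to 1.62). Those intervals lay below the ratios outside, with 7 such cells labelled WT. Under 20% globin the same genes stood at 2.73, 2.67 and 2.26. Tpt1, a translationally controlled protein abundant in many cells, stood at 1.77 (1.53 to 2.05) in CPM and 2.54 (2.19 to 2.94) per non-globin UMI in ET1, and at 1.06 (1.04 to 1.08) per non-globin UMI outside. Within the globin ranges of ET1, Tpt1 stood per non-globin UMI at 1.40 (1.13 to 1.74) under 20% globin and 2.70 (1.92 to 3.85) from 20% to 60%. At 60% or more it stood at 1.49 (0.994 to 2.31), which includes 1. In ET2 Tpt1 was higher in CPM only, with a ratio of 1.85. As CPM of non-globin UMIs it stood there at 10928 (10170.4 to 11726.5) labelled DKO and 10685 (9706.66 to 11735.5) labelled WT, intervals that overlap.

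Malat1 and transcripts of the wall matrix were lower in ET1 labelled DKO, on both scales. Malat1, a nuclear long non-coding RNA (chromosome 19, 5795690 to 5802672), stood at 8449 CPM (8009.7 to 8906) and 33071 CPM (32091 to 34074), a ratio of 0.255 (0.240 to 0.271) in CPM and 0.366 (0.344 to 0.389) per non-globin UMI. Outside ET1 and ET2 the second of these was 0.928 (0.922 to 0.934). Mgp, the matrix Gla protein that restrains calcification, was at 0.277 (0.254 to 0.301), and the metallothionein Mt1 at 0.154 (0.110 to 0.212). Outside, Mgp and Mt1 were below 1 as well, at 0.819 and 0.447 per non-globin UMI. Of 6 fibroblast genes with enough UMIs (7 in the table), 6 were lower in CPM, with a median of -1.32, and 3 per non-globin UMI, with a median of -0.80. Over all 206 genes tested 44.7% were lower and 5.34% higher in CPM, and 17.5% lower and 14.6% higher per non-globin UMI. The list counts here are to be read against those shares. Col1a1, the type I collagen gene, was at 0.298 (0.237 to 0.371) and Dcn, the proteoglycan decorin, at 0.237 (0.182 to 0.304) in CPM. In the 52 and 31 ET1 cells without markers of other cell types, a choice that removes cells by some of these genes, Col1a1 was at 0.744 (0.453 to 1.24), Dcn at 0.877 (0.466 to 1.70), Clu at 0.771 (0.351 to 1.75) and Lum at 1.30 (0.669 to 2.70), all including 1, while Malat1 was at 0.141 and Mgp at 0.379 (0.319 to 0.449). Of 6 smooth muscle genes (7 in the table), 1 was higher and 0 lower in CPM, with a median of 0.09, and 3 were higher per non-globin UMI, with a median of 0.61. The median of 60 ribosomal protein genes was -0.74 in CPM, with 38 lower, and -0.22 per non-globin UMI, with 10 lower. Of 10 dissociation and heat stress genes 2 were lower in CPM, with a median of -0.46. Among cells under 20% globin, which hold the most non-globin UMIs, Malat1 stood at 0.413 (0.382 to 0.446) and Mgp at 0.400 (0.358 to 0.447) per non-globin UMI. Cells of at least 60% globin differed: per non-globin UMI Malat1 stood there at 0.643 (0.489 to 0.855) and Mgp at 0.941 (0.623 to 1.48). By CPM both were above 1 in those cells, at 1.54 (1.18 to 2.06) and 2.26 (1.5 to 3.55), and Dcn was at 7.46 (1.22 to 306), with 1 UMI labelled WT. The lower level of Malat1 and Mgp thus held in ET1 as a whole and under 20% globin, and not by CPM among the globin-rich cells.

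A liver cluster led by haemoglobin, cluster 14 of the ApoE liver table, offers values for another tissue, read from a separately made table. It held 121 cells labelled DKO and 16 labelled WT, with median globin shares of 48.8% and 18.9%, close to those of ET1. Its Alas2 was 20.5 and 35.0 per 10000 globin UMIs, and its Bpgm 19.7 and 35.0, against 6.86 and 18.6 in ET1. Alb, the hepatocyte albumin message, made up 35559 and 47504 CPM of its non-globin UMIs.

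The depth of ET1 was modest. Its cells held medians of 1446 and 1287 UMIs, and 322 and 625 genes, against 1750.5 and 1682 UMIs in the cells outside ET1 and ET2. Among the aorta libraries 4 cell barcodes occurred in both, none of them in ET1. Across ET1 cells of the library labelled WT, higher globin share went with fewer genes (Spearman rho -0.80, n = 71 cells of 1 library), and in that labelled DKO less so (rho -0.57, n = 107). Epn1 and Epn2, the epsins of the series title, had 3 against 5 and 8 against 7 UMIs in ET1 (DKO then WT), too few to compare.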

How the data were processed

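For aorta the authors deposited 1 table of raw counts (UMIs of each gene in each cell), made with 10x Genomics droplet chemistry per the labels and with Cell Ranger 7.1.0 on mm10 per the submitters' processing notes, and a table of metadata with subtype names. The deposited counts are whole numbers whose sum in every aorta cell equals the UMI total in the metadata. The sources used here do not say how the authors filtered cells or treated doublets, and no doublet caller was run. The 26 other metadata columns were not used. With 1 library per group no test was made. Here UMIs were summed per subtype and library and scaled to CPM or, leaving globins out, to CPM of non-globin UMIs. Genes needed at least 100 UMIs over the groups compared. The alternatives were other totals, filters and choices of cells. Intervals are exact Poisson for levels, exact conditional binomial for ratios and exact Clopper-Pearson for shares, and cover counting error only. Named genes are the 15 leading genes of ET1, the 10 highest and 10 lowest by the ratio bound nearest 1 between libraries, the 10 furthest on each side of ET2 by the smaller log2 ratio of the libraries, and list members; Sh3glb1 and Alb are beyond that rule and were chosen after their values were seen. Some genes are not reported here. Scripts used Python 3.11.15, numpy 2.4.6, scipy 1.17.1 and pandas 2.3.3, and were tested on simulated data. The members and lists were chosen with earlier results of these data known.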

Additional observations from a re-analysis of the deposited data

Results flagged for a closer look

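7 transcripts were lower in ET1 labelled DKO and higher in ET2 labelled DKO, so their libraries moved in opposite ways in CPM. The difference between the subtypes was not tested, since each group is 1 library. The ET1 and ET2 ratios of DKO over WT were 0.258 and 2.39 for Clu, the chaperone clusterin, 0.298 and 4.75 for Col1a1, 0.278 and 2.48 for the proteoglycan Lum, and 0.255 and 2.14 for Malat1. They were 0.277 and 3.00 for Mgp, 0.240 and 2.0 for the stress-response gene Nupr1 and 0.301 and 2.75 for the membrane protein Tm4sf1. Per non-globin UMI the ET2 ratios were smaller, at 1.32 for Clu, 2.63 for Col1a1, 1.37 for Lum, 1.18 for Malat1, 1.66 for Mgp, 1.11 for Nupr1 and 1.52 for Tm4sf1, and those of ET1 were 0.369, 0.426, 0.398, 0.366, 0.397, 0.344 and 0.431 in the same order. In ET2 the library labelled WT held the larger globin share (median 89.8% against 81.1%), and in ET1 that labelled DKO did (45.7% against 15.6%).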

How the results depend on the processing

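No paired analysis was possible because each group is 1 library, and leaving out a replicate was not possible for the same reason. Cells without other markers are those in which no marker list of another cell type held 2 or more UMIs that made up more than 1% of the cell. With CPM of non-globin UMIs there were 30 genes higher in the library labelled DKO, 36 genes lower in the library labelled DKO, 12 genes higher in ET1 than ET2 and 69 genes lower in ET1 than ET2. Leaving out globins and captured transcripts as well there were 42 genes higher in the library labelled DKO, 29 genes lower in the library labelled DKO, 10 genes higher in ET1 than ET2 and 69 genes lower in ET1 than ET2. With the median ratio set to 1 there were 30 genes higher in the library labelled DKO, 36 genes lower in the library labelled DKO, 2 genes higher in ET1 than ET2 and 70 genes lower in ET1 than ET2. With at least 50 UMIs, of 427 genes tested 19 were higher and 211 lower in the library labelled DKO. Of 702 genes tested, 543 were then higher in ET1 than ET2. With at least 200 UMIs, 31 of 84 genes were lower in the library labelled DKO, and 115 of 166 were higher in ET1 than ET2. In cells without other markers (52 and 31 ET1 cells), of 39 genes 7 were higher and 10 lower in the library labelled DKO. Of 176 genes, 22 were higher in ET1 than ET2 in those cells. In cells thinned to 500 UMIs, 11 of 41 genes were lower in the library labelled DKO. Of 66 genes, 45 were then higher in ET1 than ET2 and 10 lower. All these counts are to be read against the genes tested, which were 206 and 342 in the main setting. The share of ET1 was 8.65% and 5.42% (DKO then WT) among cells without such markers, and 7.43% and 4.93% with ET2 counted in. 5 named ratios changed sides of 1: Bnip3l, DKO over WT, was 1.09 without globins and captured transcripts, Lum, DKO over WT, was 1.30 in cells without such markers, and with the median ratio set to 1 Dmd, Ext1 and Samd4 in ET1 over ET2 labelled WT were 0.996, 0.629 and 0.616. Weighting every cell alike or keeping cells of at least 1000 UMIs moved no count of genes by over 1.5 times and no share of ET1 beyond its interval. The cause was not tested, other than that the alternatives themselves set another total, other cells or other numbers of genes. Depth limits the rest: the ET1 pools hold 163927 and 130203 UMIs, and some ratios per globin UMI rest on 1 to 3 UMIs.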
